A study of Bos taurus with 6 samples.

Results

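The SRSF and HNRNP genes encode the 2 best-known families of proteins that decide how nuclear transcripts are spliced. They were taken here as every gene of the FPKM tables whose symbol is SRSF followed by a number or begins with HNRNP, which gave 31 of the 32183 listed genes, 11 of them SRSF and 20 of them HNRNP. Each symbol occurred on 1 row, and all 31 genes were high enough to be tested. RNA was sequenced from rumen epithelial primary cells (REPC) of a Holstein bull calf that was 2 weeks old and fed milk replacer only. Of 6 cultures, 3 were exposed to 5 mM butyrate for 24 h and 3 were controls. Butyrate is a short-chain fatty acid of the rumen and an inhibitor of histone deacetylases. The labels call the cultures replicates, and with a single calf named as the source, all p-values measure the spread between cultures of 1 animal, which may in part be technical.

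SR proteins carry 1 or 2 RNA recognition motifs (RRM) and a tail rich in arginine and serine dipeptides. They bind exonic enhancers and recruit the spliceosome, and their tails are phosphorylated by SRPK and CLK kinases. The hnRNP proteins coat nascent transcripts through RRM, quasi-RRM or KH domains, and many of them act against SR proteins by silencing exons, while others promote export, stability or translation of mRNA. Many genes of both families limit their own protein through poison exons, which send the transcript to nonsense-mediated decay. The FPKM tables hold 1 value per gene, so forms with and without such exons could not be told apart here.

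FPKM (fragments per kilobase of transcript, scaled by Cufflinks to the mapped fragments of a culture) had totals of 678035 to 681912 in control and of 619401 to 629037 after butyrate. The tables give no counts, so the depth behind a gene is known only through the confidence interval that Cufflinks attached to each FPKM. For 29 of the 31 genes, the half-width of this interval lay between 3.29% and 16.2% of the FPKM in every culture, and the exceptions were HNRNPUL2 (21.5% to 26.2%) and SRSF12 (22.6% to 72.6%), the 2 least expressed members. Of the epithelial markers, KRT8, KRT5 and CDH1 had mean FPKM of 1379.8, 400.8 and 49.8 in control, whereas TP63 (8.06), DSP (7.96), PKP1 (1.99) and EPCAM (0.54) were low. Of the fibroblast and mesenchymal markers, VIM (2463.7), COL1A1 (1149.0), COL1A2 (459.3) and COL3A1 (313.3) were high in control. THY1 (21.5) and DCN (6.9) were lower, and PDGFRA (0.306), LUM (0.149) and PDGFRB (0.0203) were close to 0. The control cultures also held high levels of ACTA2 and TAGLN (2752.2 and 3074.4), which mark smooth muscle and related contractile cells. The smooth muscle genes MYH11 (0.662) and DES (0.367) were close to 0. CDH5 of endothelium and PTPRC of leukocytes were listed at 0 in each culture, and KDR of endothelium and CD3E and CSF1R of leukocytes at 0 in control. The other markers of these lists were above 0 in control, with means of 1.54 for PECAM1 and 0.456 for VWF of endothelium. The means of CD14 and CD68 of leukocytes were 5.57 and 0.595.

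Summed expression of both families was lower after butyrate. The summed FPKM of the 11 SRSF genes was 1070.4, 1084.9 and 1114.2 in control cultures 1 to 3 and 528.5, 545.9 and 550.4 in butyrate cultures 1 to 3, so that the butyrate mean was 49.7% of the control mean. For the 20 HNRNP genes the sums were 2397.8, 2374.0 and 2445.0 in control and 1233.3, 1274.1 and 1259.9 after butyrate, and the butyrate mean was 52.2% of the control mean. No butyrate sum reached a control sum in either family. In bulk RNA, fewer cells of a kind and less RNA per cell cannot be told apart. Relative to all FPKM of a culture, the SRSF genes went from between 0.158% and 0.164% to between 0.0853% and 0.0875%, and the HNRNP genes went from between 0.348% and 0.36% to between 0.199% and 0.204%.

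**Figure D1:**
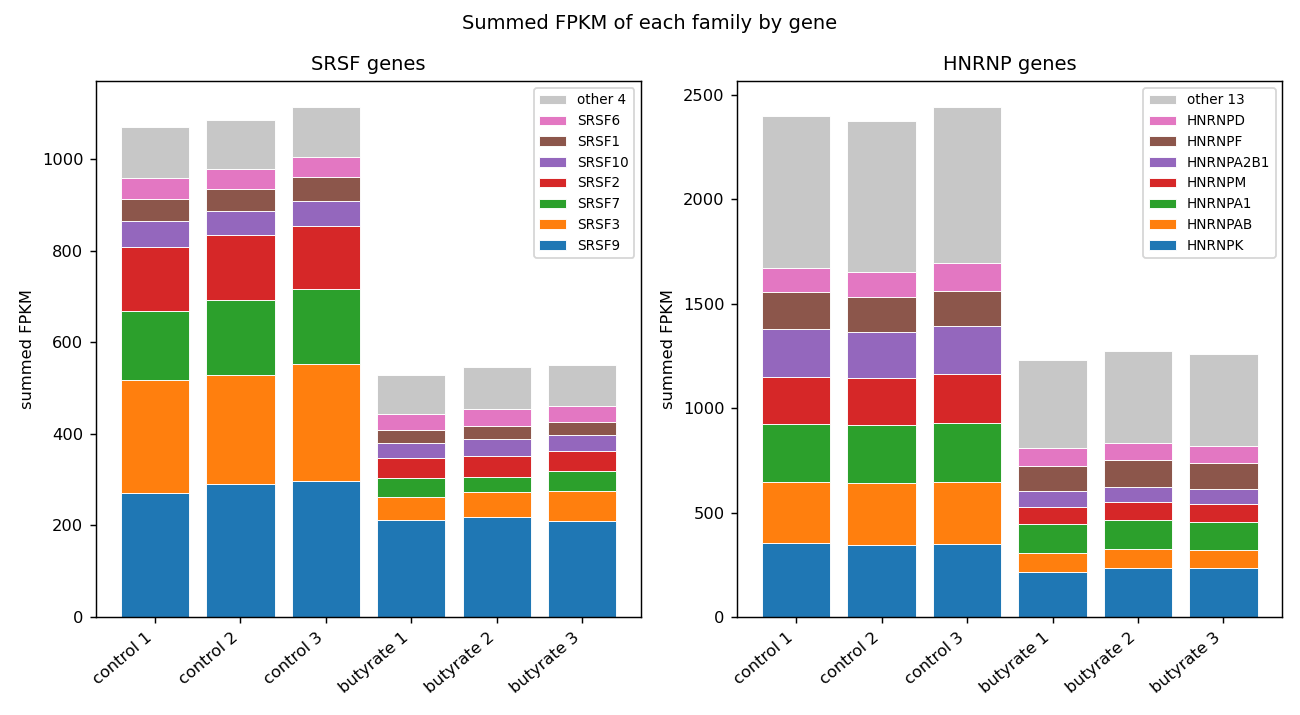
Summed FPKM of the SRSF genes (left) and the HNRNP genes (right) in each of the 6 cultures, with the 7 genes of highest control FPKM in colour and the others in grey. The SRSF bars stand between 1070.4 and 1114.2 in control and between 528.5 and 550.4 after butyrate, and SRSF9 takes the largest part of each.

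Gene by gene, 27 of the 31 members were lower after butyrate, 2 were higher and 2 did not pass the test (trended limma fit to log2(FPKM + 0.1), Benjamini-Hochberg adjusted p under 0.05 over the 15813 genes tested). Among all genes tested, 25.9% were called lower and 32.5% higher, and 58.4% in either direction (lower calls outnumbered higher ones after quantile normalization or median centring), so a call as such was common in these cultures, and the share of members called lower, 87.1%, is to be read against the first of these. The share was also taken among the 6433 genes that averaged 10 FPKM or more, a level chosen after the values were seen. Of these, 42.2% were called lower and 31.7% higher, against 27 and 1 of the 29 members at that level. The members had a median log2 fold change of -0.62, compared with 0.10 for all genes tested and -0.10 for those of at least 10 FPKM. In each of the 27 lower genes, the highest butyrate value lay below the lowest control value, an arrangement found in 28.9% of all genes tested. The reverse arrangement was found in both higher members and in 36.1% of all genes tested. The deposited confidence intervals of all butyrate cultures stood apart from those of all control cultures in 26 of the 31 genes. Intervals were not compared over all genes tested, so this count has no background to be read against.

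**Figure D2:**
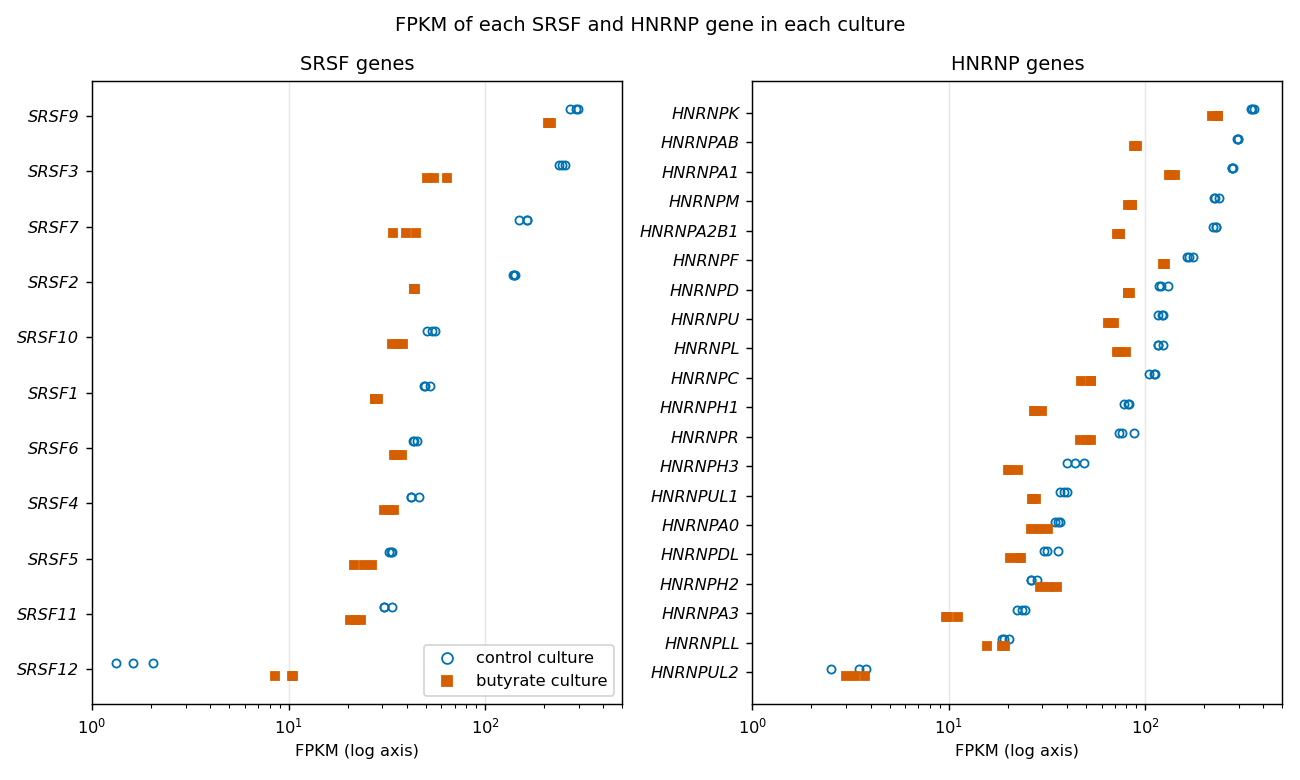
FPKM of each SRSF gene (left) and HNRNP gene (right) on a log axis, with open blue circles for the 3 control cultures and orange squares for the 3 butyrate cultures, ordered by control mean. The butyrate squares lie left of the control circles in 27 genes, right of them in SRSF12 and HNRNPH2, and among them in HNRNPLL and HNRNPUL2.

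A fall by more than 1 on the log2 scale was found in 11 members, or 35.5%, where 8.04% of all genes tested and 9.36% of those with at least 10 FPKM fell as far. The 11 were SRSF2, SRSF3, SRSF7 and 8 HNRNP genes. The stricter thresholds of the study (p under 0.05 after Bonferroni correction, more than 2 on the log2 scale) were also applied to the limma fit. The study used them with a Cufflinks test, so the calls given here are not those of the study. By these thresholds, SRSF3 and SRSF7 were lower (1.51% of all genes tested) and SRSF12 was higher (2.46% of all genes tested).

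Other groups of genes moved with butyrate in the same cultures, where 25.9% of all genes tested were called lower and 32.5% higher. All 6 proliferation markers (MKI67, TOP2A, CCNB1, CCNA2, PCNA and MCM2) were lower, and their summed FPKM went from between 251.9 and 260.1 to between 13.3 and 15.7, and the median of their log2 fold changes was -4.31. Of 10 epithelial markers 7 were higher and 1 lower, with the summed FPKM going from between 2428.2 and 2537.0 to between 5056.5 and 5138.8. All 8 tested fibroblast and mesenchymal markers were higher (4356.5 to 4512.2 in control and 6374.2 to 6714.8 after butyrate). Of 5 smooth muscle markers 4 were lower and 1 was higher, and their sum went from between 6467.6 and 6796.0 to between 2849.0 and 3455.6. Endothelial markers summed to at most 8.43 and leukocyte markers to at most 9.48 in any culture, with 2 of 2 and 1 of 2 tested genes higher. The part of proliferation or of a change in the mix of cells in the values of the splicing factors was not tested.

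The deepest falls of the SR family were those of SRSF3, SRSF7 and SRSF2. SRSF3, the smallest SR protein and a factor that couples splicing to mRNA export and 3′ end formation, is located on chromosome 23 from 10481199 to 10487676 (build UMD3.1, as are all positions given). Its FPKM was 247.8, 237.9 and 255.6 in control cultures 1 to 3 and 50.8, 55.1 and 64.2 in butyrate cultures 1 to 3. The 2 groups were far apart. The butyrate cultures kept 23.0% of the control mean, a log2 fold change of -2.13 ± 0.082 (SE from limma, adjusted p = 1.9e-07). Only 2.26% of all genes tested had a lower log2 fold change than SRSF3.

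SRSF7, a close relative of SRSF3 that also carries a zinc knuckle and likewise serves as an export adaptor, lies on chromosome 11 from 21105339 to 21110797. Its FPKM was 149.0, 163.1 and 163.8 in control and 39.5, 34.1 and 44.5 after butyrate. No butyrate value came near a control value, and the log2 fold change was -2.01 ± 0.093 (SE from limma, adjusted p = 5.1e-07). SRSF2 (SC35), which acts early in spliceosome assembly, is located on chromosome 19 from 55665999 to 55669890. It went from 140.5, 142.3 and 138.4 to 43.7, 44.2 and 43.3, with little spread inside either group, the SDs being 1.95 in control and 0.466 after butyrate (n = 3 each). The log2 fold change of SRSF2 was -1.68 ± 0.044 (SE from limma, adjusted p = 4e-08). SRSF2 overlaps METTL23, a methyltransferase gene, by 844 bases in the FPKM tables, and METTL23 moved the other way, from at most 5.85 FPKM in the control cultures to at least 9.95 in the butyrate cultures. The labels name a kit but do not say that reads were counted by strand, so fragments in the shared stretch could not be assigned with certainty.

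SRSF1, SRSF9, SRSF4, SRSF5 and SRSF6 were all lower as well, by smaller amounts. SRSF1 (ASF/SF2), the founding member of the family and a regulator of alternative 5′ splice sites, fell furthest, from 49.4, 49.2 and 52.5 FPKM to 28.5, 27.7 and 27.7, a log2 fold change of -0.85 ± 0.057 (SE from limma, adjusted p = 3.8e-06). SRSF9, which is the SR protein most like SRSF1, was the most abundant member of the family in both groups and lies on chromosome 17 from 65008116 to 65014401. Its FPKM was 270.8, 291.4 and 296.8 in control and 212.4, 217.6 and 210.4 after butyrate, so that 74.6% of the control mean remained (log2 fold change -0.42, standard error 0.046, limma, adjusted p = 6.5e-05). The SRSF1-to-SRSF9 ratio of FPKM was accordingly 0.183, 0.169 and 0.177 in control and 0.134, 0.127 and 0.131 after butyrate. SRSF4, SRSF5 and SRSF6, a trio of related proteins with long arginine-serine tails, had butyrate means of 75.3%, 73.0% and 82.0% of control. SRSF6 had the smallest fall of the family at -0.29 on the log2 scale (limma, adjusted p = 0.003), and its 3 butyrate values, from 34.5 to 37.8, still lay below its 3 control values, from 43.1 to 45.0.

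SRSF10, SRSF11 and SRSF12 stand apart from the classical SR proteins, and they did not move together. SRSF10 (SRp38) turns into a general splicing repressor when it is dephosphorylated. It went from 55.5, 50.7 and 53.9 to 33.7, 38.1 and 35.7 FPKM, a log2 fold change of -0.58 (limma, adjusted p = 0.0001). SRSF11, an SR-like protein that interacts with the U2 auxiliary factor, went from a mean of 31.6 ± 1.77 (SD, n = 3) to 21.9 ± 1.41 (SD, n = 3), a log2 fold change of -0.53 (limma, adjusted p = 0.00035).

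SRSF12 (SRrp35), a relative of SRSF10 that antagonises SR proteins in splicing assays, was the only SRSF gene that rose. It is located on chromosome 9 from 61890204 to 61907216. Its FPKM was 2.04, 1.62 and 1.33 in control cultures 1 to 3 and 10.5, 10.4 and 8.56 in butyrate cultures 1 to 3. The butyrate mean was 5.91 times the control mean, and the log2 fold change was 2.51 ± 0.18 (SE from limma, adjusted p = 5.4e-06). Of all genes tested, 95.3% had a lower log2 fold change. The intervals around the control values were wide, but the deposited bounds of the groups did not overlap. Because the 2 genes moved in opposite directions, the SRSF10-to-SRSF12 ratio of FPKM went from 27.2, 31.3 and 40.3 in control to 3.20, 3.65 and 4.17 after butyrate. SRSF12 remained the least expressed SRSF gene after butyrate, below SRSF11 in each culture.

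**Figure D3:**
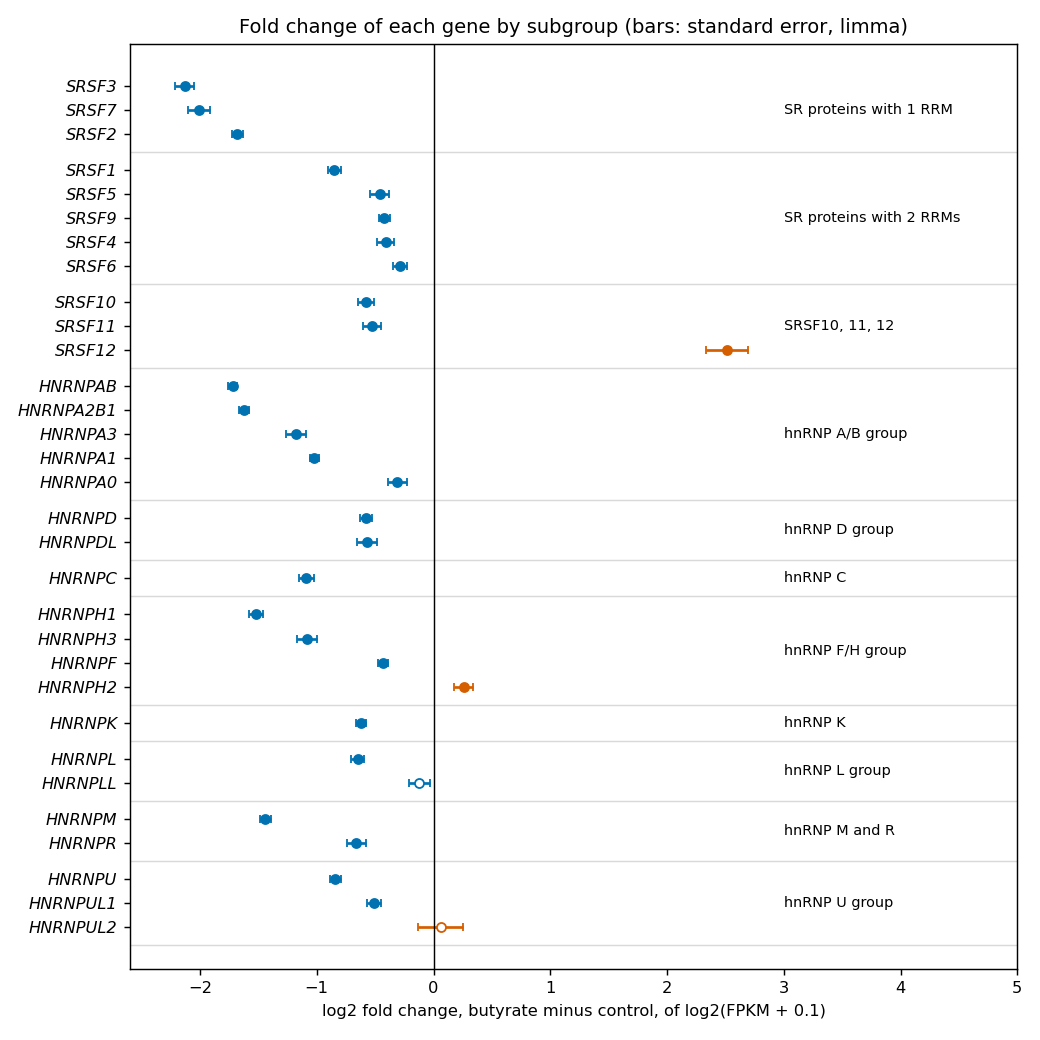
Log2 fold change of each member (butyrate minus control, on log2(FPKM + 0.1)) with its standard error from limma, grouped by subfamily. The group labelled 1 RRM holds SRSF2, SRSF3 and SRSF7 only. SRSF10, SRSF11 and SRSF12 form a group of their own whatever their number of RRMs. Filled points passed the test and open points did not; blue points lie below 0 and orange points above it, and SRSF12 at 2.51 and SRSF3 at -2.13 mark the ends of the range.

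The unequal falls changed the order of the SR genes. SRSF9 held 26.3% of the summed SRSF FPKM in control and 39.4% after butyrate (means over 3 cultures). SRSF3 went from 22.7% to 10.5%, SRSF7 from 14.6% to 7.27% and SRSF2 from 12.9% to 8.07%, whereas SRSF6 went from 4.03% to 6.64% and SRSF4 from 3.98% to 6.03%. In control, the first 4 genes, SRSF9, SRSF3, SRSF7 and SRSF2, were each above the next in every culture. After butyrate, the values of SRSF2 and SRSF7, of SRSF7 and SRSF6, of SRSF6 and SRSF10 and of SRSF10 and SRSF4 overlapped, while SRSF2 lay above SRSF6, SRSF10 and SRSF4 in every culture.

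Of the HNRNP genes, 17 were lower, 1 was higher and 2 did not pass. All 5 genes of the A/B group, some of whose proteins bind splicing silencers and oppose SR proteins, were lower. HNRNPAB, located on chromosome 7 from 40637553 to 40643940, had the largest fall among the HNRNP genes. Its FPKM was 291.8, 296.7 and 297.5 in control and 90.9, 88.8 and 88.2 after butyrate, a log2 fold change of -1.72 ± 0.039 (SE from limma, adjusted p = 3.2e-08). HNRNPA2B1, which also sorts RNA for transport, lies on chromosome 4 from 70197975 to 70207296. It went from 228.7, 220.5 and 230.7 to 74.7, 72.2 and 74.1 FPKM, and its log2 fold change was -1.62 ± 0.042 (SE from limma, adjusted p = 4e-08). HNRNPA1, the best-studied splicing silencer protein, fell by less, from 275.5, 276.9 and 279.7 to 136.0, 141.7 and 132.2 FPKM (log2 fold change -1.02, standard error 0.041, limma, adjusted p = 2.5e-07). HNRNPA3, a relative of both, went from 22.3, 24.4 and 23.5 to 11.2, 9.93 and 9.65 FPKM (log2 fold change -1.18), and HNRNPA0, from 36.9, 34.6 and 36.2 to 28.9, 31.9 and 26.3, had the smallest of the group, -0.31 (limma, adjusted p = 0.01), which no longer passed when the FPKM were rescaled to TPM (-0.18, limma, adjusted p = 0.087). Genes of this group, HNRNPA1 above all, have many processed copies in mammalian genomes. As only uniquely mapped reads were used, their levels are uncertain to the extent that reads match a copy.

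The F/H group, which recognises runs of G, split. HNRNPH1 on chromosome 7 from 1593412 to 1602464 went from 78.3, 81.9 and 82.9 FPKM to 27.4, 27.1 and 30.0, a log2 fold change of -1.52 ± 0.061 (SE from limma, adjusted p = 2.3e-07). HNRNPH3 went from 40.2, 44.1 and 48.9 FPKM to at most 22.4 in the butyrate cultures (log2 fold change -1.08). The highest of these butyrate values were far below the lowest control values in both genes. HNRNPF, a relative that acts with them on G runs, went from 175.3, 163.8 and 167.4 to 123.6, 126.7 and 125.2 FPKM, without overlap (log2 fold change -0.43). HNRNPH2, the X-linked paralogue of HNRNPH1 from 55234901 to 55241423, had higher values after butyrate. Its FPKM was 28.3, 26.3 and 26.3 in control and 32.4, 35.4 and 29.2 after butyrate, a log2 fold change of 0.26 ± 0.082 (SE from limma, adjusted p = 0.025).

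The rise of HNRNPH2 was close to the threshold and did not pass under several settings. It was 0.26 without the mean-variance trend (limma, adjusted p = 0.068) and 0.15 after centring each culture on its median (limma, adjusted p = 0.11). It also fell short of the threshold without butyrate replicate 1 (0.25), butyrate replicate 2 (0.19), control replicate 2 (0.24) or control replicate 3 (0.24). The adjusted p from limma ranged from 0.0047 with TPM to 0.11 with median centring over the settings tried. The ratio of HNRNPH1 to HNRNPH2, both on the per-length scale of FPKM, went from 2.76, 3.12 and 3.15 in control to 0.848, 0.766 and 1.03 after butyrate, so that the pair went from a clear excess of HNRNPH1 to similar levels. The proteins are close to identical, and reads shared by both genes were not counted.

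HNRNPM, a regulator of splicing in epithelial and mesenchymal cells, is located on chromosome 7 from 18289393 to 18329947. It went from 226.7, 225.4 and 237.9 to 82.2, 86.1 and 86.0 FPKM, a log2 fold change of -1.44 ± 0.044 (SE from limma, adjusted p = 8e-08). HNRNPC, which binds uridine tracts and keeps cryptic exons from being used, had a mean of 109.1 ± 3.67 (SD, n = 3) in control and 51.1 ± 3.55 (SD, n = 3) after butyrate, a log2 fold change of -1.09 (limma, adjusted p = 1.6e-06). HNRNPU, a scaffold attachment factor of the nuclear matrix, went from 122.1, 122.8 and 115.6 to 69.1, 64.5 and 67.4 FPKM, a log2 fold change of -0.84 (limma, adjusted p = 1.9e-06). HNRNPR, related to the mRNA-binding protein SYNCRIP, and HNRNPL, which binds CA repeats, had log2 fold changes of -0.66 and -0.65.

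HNRNPK, a KH-domain protein that binds C-rich sequence, was the most abundant HNRNP gene in both groups and is located on chromosome 8 from 78573877 to 78585944. Its FPKM was 356.8, 347.8 and 350.4 in control and 217.9, 235.6 and 234.3 after butyrate. The fall to 65.2% of the control mean was clear of the spread (log2 fold change -0.62, standard error 0.043, limma, adjusted p = 4.6e-06), and yet its share of the summed HNRNP FPKM went from 14.6% to 18.3%. The share of HNRNPAB went from 12.3% to 7.11%, and that of HNRNPF from 7.02% to 9.97%. After butyrate the order was HNRNPK, HNRNPA1 and HNRNPF, each above the next in every culture, where HNRNPAB had stood second in control.

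In the L and U groups, 2 paralogues gave no call. HNRNPLL, known for CD45 splicing in lymphocytes, had 20.2, 19.1 and 18.6 FPKM in control and 15.7, 18.7 and 19.3 after butyrate, so that the groups overlapped (log2 fold change -0.12, standard error 0.093, limma, adjusted p = 0.31). HNRNPUL2, a relative of HNRNPU, had 3.51, 3.78 and 2.52 in control and 3.33, 3.01 and 3.77 after butyrate (log2 fold change 0.06, standard error 0.19, limma, adjusted p = 0.82). At its low level and wide interval, a change of the size seen in HNRNPUL1, -0.51, would have been under 3 standard errors. HNRNPUL1 was lower, at 40.2, 38.6 and 36.8 against 27.7, 26.5 and 27.0 FPKM, but its span contains an unnamed locus of 1171 bases that was listed at between 6860.0 and 8320.0 FPKM in the 6 cultures, and whether fragments of that locus were counted in HNRNPUL1 was not tested.

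Some members lie near each other, which the choice of genes by symbol did not use. HNRNPD and HNRNPDL, 2 members of the D group that bind AU-rich elements, are separated by 49.7 kb on chromosome 6 with 1 listed gene between them. Their log2 fold changes were -0.58 and -0.57, and the ratio of HNRNPD to HNRNPDL lay between 3.61 and 3.84 in control and between 3.53 and 4.07 after butyrate. By contrast, SRSF7 and HNRNPLL are only 138.0 kb apart on chromosome 11, with log2 fold changes of -2.01 and -0.12. HNRNPR and SRSF10 lie 565.0 kb apart on chromosome 2, at -0.66 and -0.58. All other pairs on a shared chromosome were at least 1870.0 kb apart. The genes that fell furthest were compact, with spans of 6.48 kb for SRSF3, 5.46 kb for SRSF7, 6.39 kb for HNRNPAB, 3.89 kb for SRSF2 and 9.32 kb for HNRNPA2B1, but so were SRSF6 (5.68 kb), SRSF9 (6.29 kb) and HNRNPA0 (3.12 kb), whose changes were small.

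The fold changes of the members shifted with the scaling of the cultures. The median log2 fold change of all genes tested was 0.10 with FPKM as deposited, 0.24 after rescaling to TPM, -0.05 after quantile normalization and 0 after centring each culture on its median. Across the last 3 scalings the log2 fold change lay between -2.23 and -1.99 for SRSF3, between -0.53 and -0.21 for SRSF9, between -1.83 and -1.55 for HNRNPAB and between 2.32 and 2.65 for SRSF12. All 10 lower SRSF genes and 16 of the 17 lower HNRNP genes kept their call under each scaling, the exception being HNRNPA0 with TPM.

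**Figure D4:**
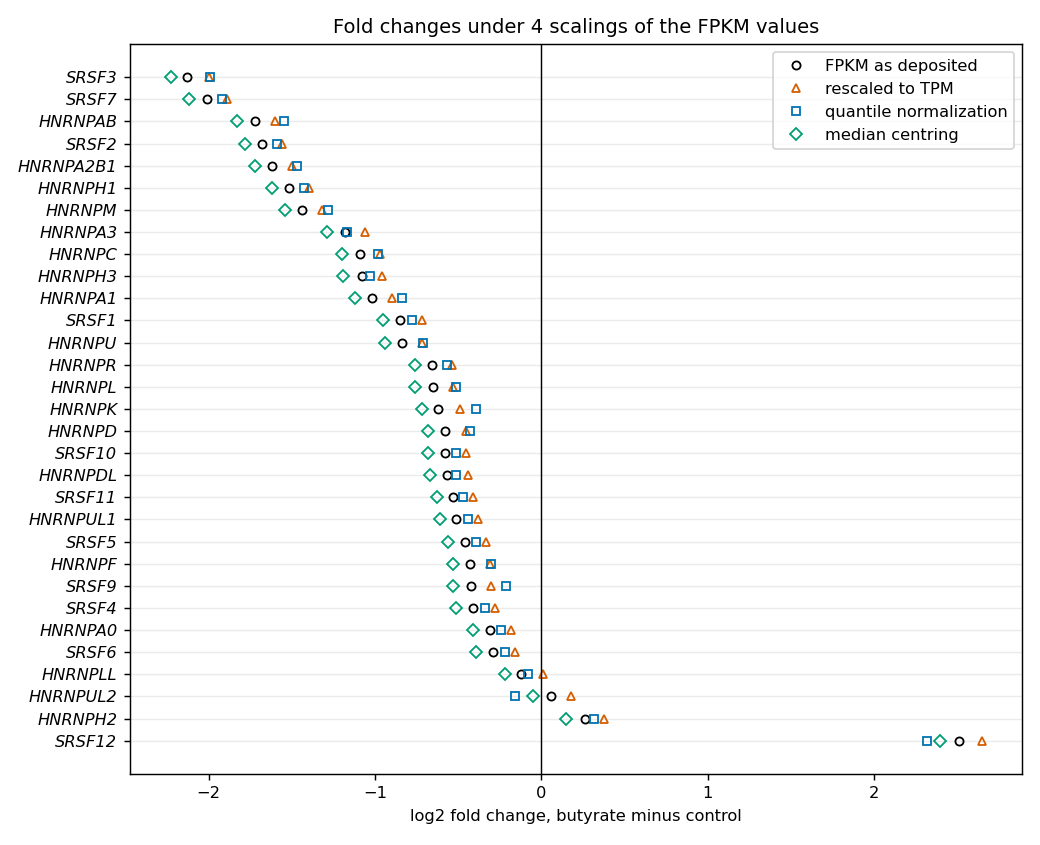
Log2 fold change of each member under 4 scalings, with circles for FPKM as deposited, triangles for TPM, squares for quantile normalization and diamonds for median centring. The symbols of SRSF3 span -2.23 to -1.99 and those of SRSF12 span 2.32 to 2.65, and symbols stand on both sides of 0 only for HNRNPLL and HNRNPUL2.

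The remaining splicing machinery was read from 6 lists of genes written from textbook knowledge. Of 168 tested genes, 104 (61.9%) were lower, 17 (10.1%) higher and 47 not called. Among all genes tested, 25.9% were lower and 32.5% higher, and among those of at least 10 FPKM, 42.2% and 31.7%. The lists held genes above and below that level. The log2 fold changes of the 168 genes had a median of -0.46. Of 62 Sm, LSm and snRNP protein genes, 50 (80.6%) were lower and 1 was higher, with a median log2 fold change of -0.64. The U2 protein SNRPA1 went from 130.5 to 31.4 FPKM (log2 fold change -2.05) and LSM3, of the ring on U6, from 144.8 to 36.6 (-1.98). PRPF40B rose, at a log2 fold change of 0.98. Several large subunits gave no call, such as SF3B1 (-0.08) and SNRNP200 (-0.12), while others, such as SF3B3 (-1.11) and EFTUD2 (-0.27), were lower.

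The hnRNP proteins that carry other symbols had 14 of 20 genes (70.0%) lower, 3 higher and a median of -0.61. SYNCRIP (hnRNP Q) and RBMX (hnRNP G) had log2 fold changes of -1.89 and -1.44. The rises were those of PCBP3 from 2.12 to 12.2 FPKM (2.49), PCBP4 (1.00) and RALY (0.40), which are relatives of HNRNPK and HNRNPC. The PCBP genes split, as PCBP1 went from 154.8 to 65.4 FPKM (-1.24) and PCBP2 from 34.5 to 17.7 (-0.96). Of 23 SR-related proteins, 15 (65.2%) were lower and the other 8 were not called, with TRA2B, a splicing activator with an SR-like tail, at -1.22 and U2AF2, which binds the polypyrimidine tract, at -0.92.

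The enzymes that modify and import SR proteins counted 7 of 22 genes (31.8%) lower, 4 (18.2%) higher and 11 not called, so that the share lower was near the 25.9% of all genes tested. SRPK2 rose from a mean of 4.42 to 7.82 FPKM (log2 fold change 0.81, limma, adjusted p = 0.00034) and SRPK1, its more abundant relative, from 26.3 to 35.1 (0.41, limma, adjusted p = 0.001). The muscle kinase SRPK3 was lower (-1.25, standard error 0.32), at a low level that went from 1.92 to 0.771 FPKM. Of the CLK kinases, CLK4 was higher (0.46), while CLK1, CLK2 and CLK3 gave log2 fold changes of -0.30, -0.15 and -0.12 and did not pass. Of the phosphatase catalytic subunits, PPP1CB was higher (0.47), PPP1CC was lower (-0.50) and PPP1CA did not pass (0.01). PRMT5, which methylates Sm proteins, had a log2 fold change of -1.54, and TNPO3, which imports SR proteins, one of -0.32.

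Among 24 tested regulators of alternative splicing, some restricted to certain tissues and others, such as KHDRBS1, MBNL1, RBM4, RBM5, RBM10, TIA1 and TIAL1, found in most cells, 9 (37.5%) were lower and 7 (29.2%) higher, the latter near the 32.5% of all genes tested. The 7 genes just named were all among the 9 lower ones, so they do not stand for every well-expressed gene of the list. MBNL2, QKI and RBFOX2, with mean FPKM of 47.1, 42.4 and 37.3, were not called (log2 fold changes -0.11, -0.28 and -0.23). The list held 9 more genes that were too low to be tested. The epithelial regulators ESRP1 and ESRP2 rose from 0.781 to 2.63 and from 0.176 to 1.29 FPKM, with log2 fold changes of 1.63 and 2.35. SRRM3 and RBFOX3, known from neurons, had the largest rises, 3.29 and 3.20, and reached only 1.85 and 1.02 FPKM. NOVA1 (-1.86) and RBM10 (-0.76) had the largest falls, but NOVA1 averaged only 0.476 FPKM in control and its groups overlapped. Of 17 factors of the exon junction complex, the cap-binding complex and nonsense-mediated decay, 9 (52.9%) were lower and 2 (11.8%) higher. These shares were 25.9% and 32.5% among all genes tested, and 42.2% and 31.7% among those of at least 10 FPKM. The junction proteins MAGOHB and RBM8A led the falls with -1.77 and -1.26, and SMG6, an endonuclease that cuts decay targets, rose by 0.67. UPF1, the central helicase of that pathway, had a log2 fold change of -0.18 and did not pass.

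**Figure D5:**
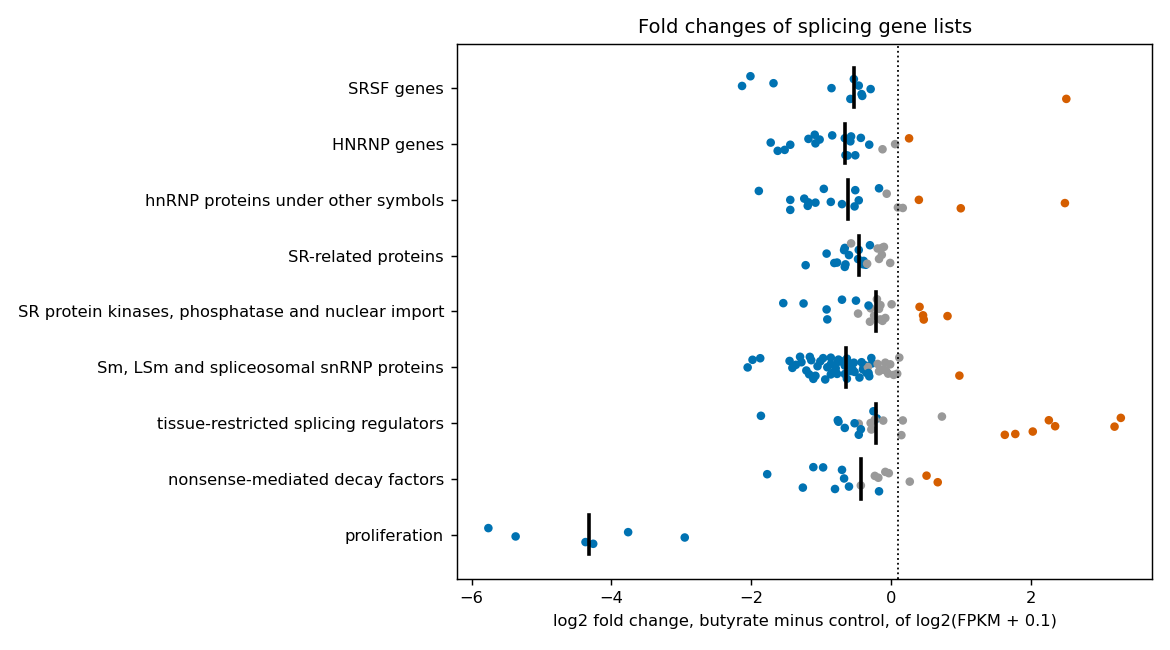
Log2 fold change (butyrate minus control, on log2(FPKM + 0.1)) of every tested gene in both families, in 6 lists of other splicing genes and in a list of proliferation genes. The list named tissue-restricted also holds regulators found in most cells. Blue points were called lower, orange points higher and grey points neither; black bars are list medians and the dotted line is the median of all genes tested, 0.10.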

How the data were processed

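Per the labels and the study's methods, the authors trimmed reads with Trim Galore 0.4.1, aligned them with STAR, kept uniquely mapped reads and computed gene FPKM with Cufflinks for each of the 6 cultures. The submitters' notes name the build UMD3.1. The deposited tables hold FPKM and its lower and upper confidence bound, and no counts. Coordinates are those of the tables. Sequences were given chromosome numbers by the chromosome that most of their genes have in RefSeq for the assembly ARS-UCD2.0 (at least 95.2% of genes on each sequence), from which nothing else was taken.

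Rows were joined by position. In 2 genes an estimate had failed in at least 1 culture, and these were left out. Cultures of a group shared the same nonzero FPKM in at most 1 gene per pair. Under R 4.3.3, limma 3.58.1 with its trend option compared butyrate with control on log2(FPKM + 0.1), which understates changes of low genes, for the 15813 genes averaging 0.1 FPKM or more. Calls used a Benjamini-Hochberg adjusted p under 0.05 over all of them. The fit was checked on simulated data. Alternatives were other pseudocounts, filters, scalings and thresholds, no trend, a replicate block and each culture left out.

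All members are named. Values in each culture are given for the 5 largest rises and falls among called genes without overlap and the 3 most abundant genes per family, and for others where a comparison needed them. From each list, up to 2 rises and 2 falls are named, except 1 gene that is not reported here, and further genes and all ratios of gene pairs were chosen after their values were seen. Members and lists were chosen with earlier results of these data known. No sequences are shown.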

Additional observations from a re-analysis of the deposited data

How the results depend on the processing

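The counts of lower SRSF genes (10) and lower HNRNP genes (17) stayed within 1 of these values under other pseudocounts, filters and scalings, without the trend, with the replicate block and with each culture left out. The single higher SRSF gene was found in each setting. With the replicate block, 10 SRSF genes and 17 HNRNP genes were lower and 1 of each was higher, and no call of a member changed. Deviations of same-numbered cultures from their group means correlated at 0.0228, -0.00431 and 0.00177 across genes, so no deviation shared by number was seen. Whether same-numbered cultures were paired by design is not said in the labels, and these values cannot decide it.

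The higher HNRNP gene, HNRNPH2, was lost (0 in place of 1) without the trend, with median centring and under both fold-change thresholds, and its count ranged from 0 to 1 with a culture left out. When changes also had to exceed 1 on the log2 scale, 3 SRSF and 8 HNRNP genes were lower, other splicing genes gave 30 lower and 9 higher in place of 104 and 17, and all genes gave 1271 lower and 2718 higher in place of 4091 and 5144. Under the Bonferroni threshold with changes beyond 2 on the log2 scale, 2 SRSF and 0 HNRNP genes were lower, other splicing genes gave 1 in each direction, and all genes gave 238 lower and 389 higher. Those falls follow from the thresholds. Whether more of all genes were higher or lower turned with the scaling, with 6018 higher and 3382 lower for TPM, 4284 and 4679 for quantile normalization and 4472 and 4794 for median centring. Lower other splicing genes then numbered 90, 108 and 123. Higher other splicing genes numbered 11 at a mean FPKM of at least 1, where fewer genes were tested.

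Uncalled genes changed sign, HNRNPLL to 0.01 with TPM, and HNRNPUL2 to -0.16 with quantile normalization and -0.05 with median centring. Without butyrate replicate 3 or control replicate 3, HNRNPUL2 was at -0.03 or -0.12, within a range of -0.12 to 0.17 over the cultures left out. Without counts, the precision of low genes such as SRSF12 and HNRNPUL2 is limited to what the deposited intervals give.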
